A study of Caenorhabditis elegans with 4 samples.

Results

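The 5 genes described here handle zinc and cadmium in *C. elegans*: the metallothionein genes *mtl-1* (K11G9.6) and *mtl-2* (T08G5.10), the cadmium-responsive gene *cdr-1* (F35E8.11), and the zinc transporter genes *cdf-2* (T18D3.3) and *ttm-1* (Y39E4A.2). They were chosen by name and function, with earlier results of these data known, from 46745 sequence names, and their counts were summed over all listed transcripts of each name. The data are total RNA counts of entire wild-type animals of the Bristol strain N2, which ate either *E. coli* OP50 (2 samples), the standard laboratory food, or *L. paracasei* subsp. *paracasei* 2004 (2 samples, called 2004 below). Feeding lasted 3 days and began in Day 1 adults. The labels give S basal medium for both foods, whereas the methods give NGM plates. Each sample was a pool of animals, and neither source says whether replicates were separate cultures, so the p-values measure the spread between these samples only. Gene positions are those of the WBcel235 annotation of Ensembl release 115.

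Zinc is needed by many proteins and is toxic in excess, and cadmium enters cells partly through the same routes. Metallothioneins are small cysteine-rich proteins that bind such metals. Cation diffusion facilitators, to which *cdf-2* and *ttm-1* belong, move zinc out of the cytosol, CDF-2 into the gut granules that store zinc in the intestine and TTM-1 out of the cell or into vesicles. ZIP transporters move zinc the other way. CDR-1 is a lysosomal protein of the intestine whose gene is known for its induction by cadmium. In animals given excess zinc, the nuclear receptor HIZR-1 activates genes of this group.

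The counts summed to between 44548901 and 50504029 per sample, so that a count of 0 allowed at most 3 counts, or 0.0594 to 0.0673 CPM (counts scaled to a total of 1000000 per sample). The foods were compared by edgeR's quasi-likelihood method over the 12505 genes that reached 0.5 CPM in at least 2 samples. A gene was called when its Benjamini-Hochberg adjusted p was under 0.1 and its fold change over 2, the thresholds given in the study's results. By this rule 22.4% of the tested genes were called, 7.55% as higher in animals fed 2004 and 14.8% as lower. All 5 genes were tested. *cdr-1* was called higher, and none of the others was called in either direction. Without the fold threshold, 23.9% of genes were higher and 25.2% lower at an adjusted p under 0.1, and *ttm-1* was among the latter. Both 2004 samples lay above both OP50 samples in 37.5% of genes and below them in 33.7%, together 71.2%, so the same separation in 4 of the 5 genes is near the background.

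**Figure D1:**
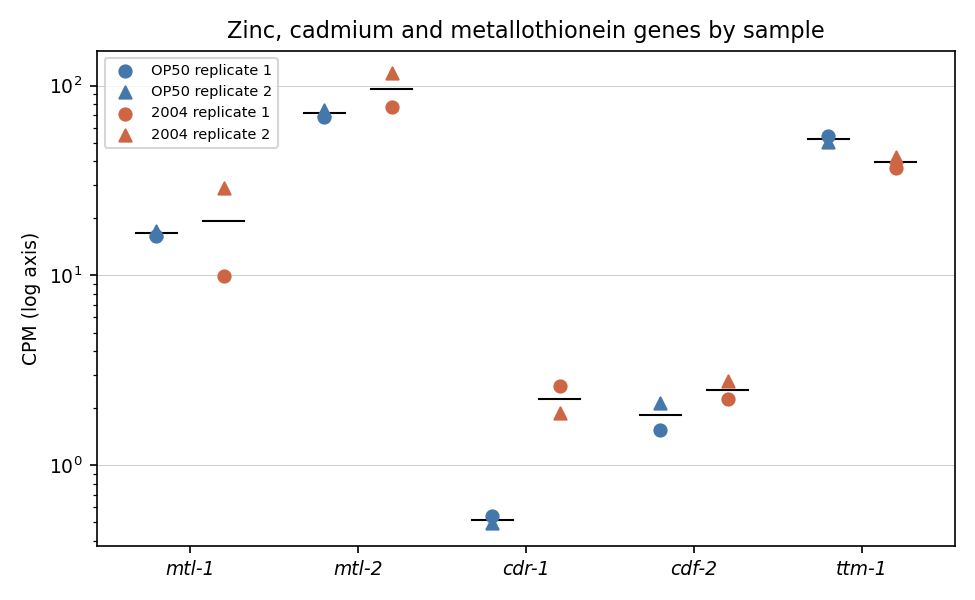
CPM of each gene in each sample on a log axis, with OP50 in blue, 2004 in orange, circles for replicate 1, triangles for replicate 2 and a black line at the mean of each food. The *cdr-1* samples of animals fed 2004 lie at 2.61 and 1.88 CPM, above the OP50 samples at 0.539 and 0.495 CPM, while the 2004 samples of *mtl-1* lie on either side of its OP50 samples.

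*cdr-1* lies on chromosome V (15921309 to 15922820, + strand, 6 exons) and overlaps no other annotated gene. Its counts were 24 and 25 with OP50 and 121 and 87 with 2004. These are 0.539 and 0.495 CPM (95% Poisson intervals 0.345 to 0.802 and 0.320 to 0.731) against 2.61 and 1.88 CPM (2.17 to 3.12 and 1.50 to 2.32). The counts are estimates and not numbers of reads, so these counting intervals are approximate and may be too narrow. They cover counting error only. Both 2004 samples stood above both OP50 samples, and the counting intervals of the foods did not overlap. The level was 0.517 ± 0.031 CPM (SD, n = 2) with OP50 and 2.24 ± 0.518 CPM (SD, n = 2) with 2004. The log2 fold change was 2.05 (standard error, SE, 0.44, 95% interval 1.08 to 3.02, adjusted p = 0.00486, edgeR), a 4.15-fold rise. *cdr-1* ranked 306 of the 12505 tested genes by fold change. In OP50 samples 1 of 2 reached 0.5 CPM, so the gene would not have been tested on its OP50 level alone. Without each sample in turn, the log2 fold change was between 1.88 and 2.25. Such fits assume that the lone sample of a food varies like the others, so their p-values do not measure the spread of that food.

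The cdr genes are named after *cdr-1* and encode related proteins, and 6 of them were listed. *cdr-2*, *cdr-6*, *cdr-7* and *cdr-4* lie together on chromosome V between 12407366 and 12415709, apart from *cdr-1*. Reads may have been shared between similar copies. *cdr-3* had 0 counts in all 4 samples. Of the 5 tested genes, *cdr-1* was called higher and *cdr-2* lower. *cdr-2* had 253 and 718 counts with OP50 and 123 and 115 counts with 2004, that is 5.68 and 14.2 CPM against 2.65 and 2.48 CPM. Its OP50 samples differed from each other, yet both lay above both 2004 samples, and the log2 fold change was -1.97 (SE 0.36, adjusted p = 0.00209, edgeR). Within a sample, there were 9.49 and 3.48 *cdr-1* counts for every 100 *cdr-2* counts with OP50 and 98.4 and 75.7 with 2004. This ratio does not depend on how the samples were scaled.
*cdr-4* had 6.33 and 8.45 CPM with OP50 and 15.6 and 10.6 CPM with 2004. Its log2 fold change of 0.77 (adjusted p = 0.0232, edgeR) did not reach 2-fold with all samples, and was 1.01 without 2004 replicate 2. *cdr-6*, the most abundant of the family per length, had 17.0 and 26.1 CPM with OP50 and 18.7 and 11.9 CPM with 2004, and *cdr-7* had 4.35 and 4.89 CPM against 4.66 and 3.26 CPM. The foods overlapped for both genes, and the log2 fold changes were -0.54 (adjusted p = 0.0742, edgeR) and -0.28 (adjusted p = 0.445, edgeR). Summed over the family, the level was 33.9 and 54.1 CPM with OP50 and 44.2 and 30.1 CPM with 2004, which also overlapped.

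**Figure D2:**
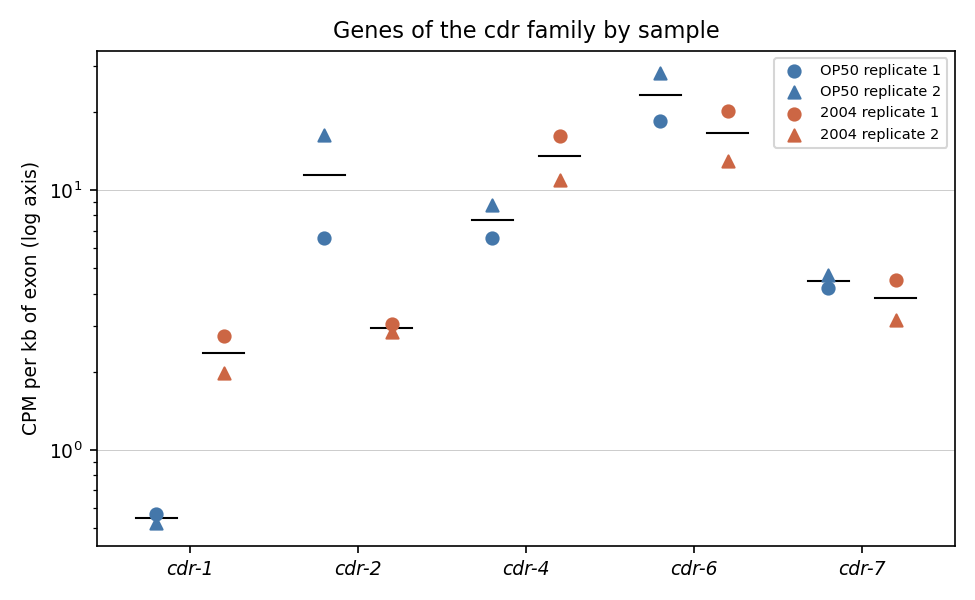
Level of the 5 tested cdr genes in each sample, in CPM per kb of exon on a log axis, with symbols as in the plot of CPM by sample and black lines at the mean of each food. *cdr-1* lies at 0.522 and 0.568 CPM per kb with OP50 and at 1.98 and 2.75 with 2004, whereas *cdr-2* lies at 6.53 and 16.3 with OP50 and at 2.85 and 3.05 with 2004.

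*mtl-1* lies on chromosome V (6691371 to 6691863, - strand) and has 2 exons with 225 coding bases before the stop codon. It had 714 and 869 counts with OP50 and 458 and 1334 counts with 2004, or 16.03 and 17.21 CPM against 9.88 and 28.8 CPM. The OP50 samples lay close together, and the 2004 samples fell below and above them. The 2004 samples differed 2.91-fold, and 2.14% of the 12505 tested genes differed at least as much between these samples. With OP50 the corresponding difference was 1.07-fold, which 79.1% of genes reached or passed. The level was 16.6 ± 0.834 CPM (SD, n = 2) with OP50 and 19.3 ± 13.4 CPM (SD, n = 2) with 2004, and the log2 fold change was 0.20 (SE 0.39, 95% interval -0.66 to 1.06, adjusted p = 0.708, edgeR). The interval ran from 0.631-fold to 2.08-fold of the OP50 level, so a moderate change in either direction could not be told from none. The direction rested on single libraries. The log2 fold change was 0.82 without 2004 replicate 1 and -0.83 without 2004 replicate 2.

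*mtl-2* also lies on chromosome V (14018270 to 14018673, - strand) and has 2 exons with 189 coding bases before the stop codon. It was the most abundant of the 5 genes, with 3053 and 3754 counts with OP50 and 3560 and 5378 counts with 2004, or 68.5 and 74.3 CPM against 76.8 and 116 CPM. Both 2004 samples lay above both OP50 samples, 2004 replicate 1 by a small margin. The level was 71.4 ± 4.10 CPM (SD, n = 2) with OP50 and 96.4 ± 27.8 CPM (SD, n = 2) with 2004. The log2 fold change was 0.40 (SE 0.20, 95% interval -0.04 to 0.83, adjusted p = 0.133, edgeR) and missed the threshold, and the interval ends below a 2-fold rise. Without 2004 replicate 1 the log2 fold change was 0.73, and without 2004 replicate 2 it was 0.02. The metallothionein genes thus shared their highest library, 2004 replicate 2.
Per kb of exon, *mtl-2* stood 4.60-fold and 4.64-fold above *mtl-1* in the OP50 samples, 8.36-fold in 2004 replicate 1 and 4.33-fold in 2004 replicate 2. In 3 of the 4 samples the ratio was therefore nearly the same, and it was highest in 2004 replicate 1, the sample with the lowest *mtl-1* count. Together the metallothionein genes had 84.6 and 91.5 CPM with OP50 and 86.7 and 145 CPM with 2004.

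**Figure D3:**
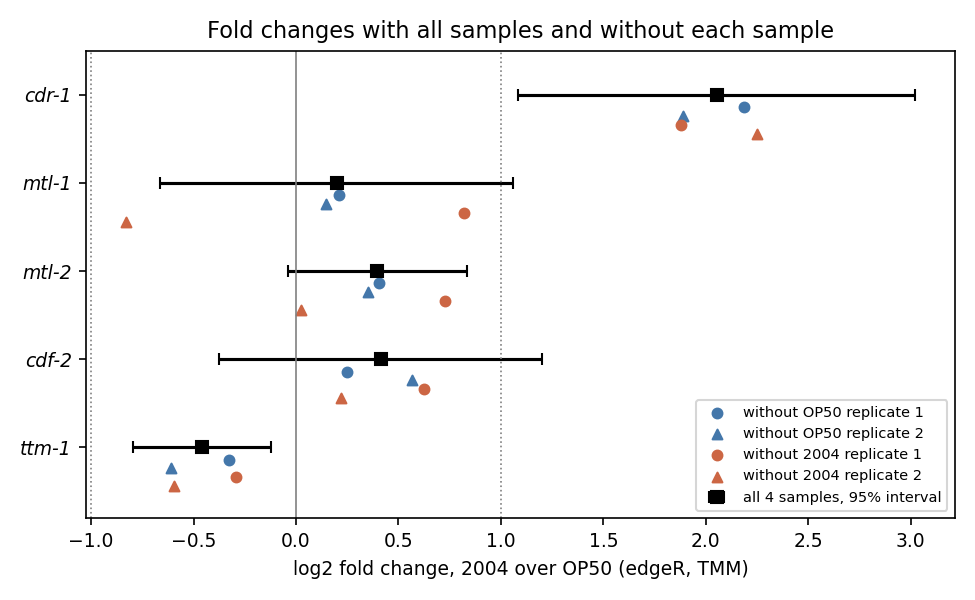
Log2 fold change of each gene, 2004 over OP50, with all 4 samples (black squares with 95% intervals from edgeR) and without each sample in turn (blue without an OP50 sample, orange without a 2004 sample, circles for replicate 1, triangles for replicate 2). Dotted lines mark 2-fold changes. *cdr-1* stays at 1.88 or more throughout, whereas *mtl-1* lies at 0.82 without 2004 replicate 1 and at -0.83 without 2004 replicate 2.

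*ttm-1* lies on chromosome III (12952969 to 12966995, - strand). It had 2412 and 2539 counts with OP50 and 1699 and 1952 counts with 2004, or 54.1 and 50.3 CPM against 36.7 and 42.1 CPM. Both 2004 samples lay below both OP50 samples, and the replicates of each food were close. The level was 52.2 ± 2.74 CPM (SD, n = 2) with OP50 and 39.4 ± 3.87 CPM (SD, n = 2) with 2004. The log2 fold change was -0.46 (SE 0.15, 95% interval -0.79 to -0.12, adjusted p = 0.0358, edgeR). *ttm-1* was thus 1.37-fold lower in animals fed 2004, a difference under the 2-fold threshold. Its adjusted p-value rose to 0.114 without OP50 replicate 1 and to 0.288 without 2004 replicate 1 (edgeR), with log2 fold changes of -0.33 and -0.29.
The table listed transcripts Y39E4A.2a and Y39E4A.2b of *ttm-1*, which encode the a and b forms of the protein and have 1177 exonic bases in common. Beside these, 237 bases of Y39E4A.2a are not in Y39E4A.2b and 451 bases of Y39E4A.2b are not in Y39E4A.2a, and the division of reads between them rests on those bases. The annotation also has Y39E4A.2c, not used here, which leaves 177 bases to Y39E4A.2a alone. TTM-1B is the form known at the apical membrane of the intestine, where it excretes zinc. Y39E4A.2a had 2036 and 2077 counts with OP50 and 1455 and 1696 counts with 2004, and held between 81.8% and 86.9% of the gene's counts in the 4 samples. Y39E4A.2b had 376 and 462 counts with OP50 and 244 and 256 counts with 2004, or 8.44 and 9.15 CPM against 5.26 and 5.52 CPM. Both transcripts had lower values with 2004 in every sample. In the test over 16577 transcripts, where 4.24% were called higher and 7.13% lower, neither was called. The log2 fold changes were -0.41 (SE 0.19, adjusted p = 0.244, edgeR) for Y39E4A.2a and -0.76 (SE 0.23, adjusted p = 0.130, edgeR) for Y39E4A.2b. The share of Y39E4A.2b was 15.6% and 18.2% with OP50 and 14.4% and 13.1% with 2004.

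*cdf-2* lies on chromosome X (12464640 to 12466917, - strand) and was listed as a single transcript. It had 68 and 108 counts with OP50 and 104 and 128 counts with 2004, or 1.53 and 2.14 CPM against 2.24 and 2.76 CPM. Its lowest 2004 sample lay just above its highest OP50 sample, and the counting intervals of those samples (1.83 to 2.72 and 1.75 to 2.58 CPM) overlapped. The level was 1.83 ± 0.433 CPM (SD, n = 2) with OP50 and 2.50 ± 0.367 CPM (SD, n = 2) with 2004. The log2 fold change of 0.41 (SE 0.36, 95% interval -0.38 to 1.20, adjusted p = 0.377, edgeR) missed the threshold, and at this depth a change of up to 2.30-fold could not be told from none. It was 0.62 without 2004 replicate 1 and 0.22 without 2004 replicate 2.
The list of cation diffusion facilitators held 5 genes, of which 0 were called in either direction, with a median log2 fold change of 0.12 (-0.028 over all tested genes). *toc-1* had a log2 fold change of 0.46 (adjusted p = 0.0157, edgeR), the opposite sign to *ttm-1*, also below 2-fold. *cdf-1*, which exports zinc from cells, had 24.3 CPM with OP50 and 27.2 CPM with 2004 on average (log2 fold change 0.12, adjusted p = 0.550, edgeR), and *sur-7* had 23.2 and 22.2 CPM (log2 fold change -0.11, adjusted p = 0.595, edgeR). The foods overlapped for these last genes.

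In mean level per kb of exon, *mtl-2* came first with either food, at 206 CPM per kb with OP50 and 278 with 2004. It was followed by *mtl-1* (44.5 and 51.8) and *ttm-1* (28.0 and 21.1), whose samples did not overlap within either food. *cdf-2* and *cdr-1* were far lower. With OP50, *cdf-2* at 1.13 and 1.58 CPM per kb stood above *cdr-1* at 0.568 and 0.522. With 2004 their samples overlapped, at 1.66 and 2.04 for *cdf-2* and 2.75 and 1.98 for *cdr-1*. Among the tested genes, 95.5% had a lower mean level per kb over all samples than *mtl-2*, and 20.7% had a lower one than *cdr-1*.

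Other genes of metal handling were taken from lists by function. With the 5 genes included, 8 lists held 58 genes, of which 56 were tested, 1 was called higher and 8 lower, with a median log2 fold change of 0.14 (-0.028 over all tested genes). These are 1.79% and 14.3% of the tested list genes, beside 7.55% and 14.8% of all tested genes, so the share called lower is the background share. The listed *ccs-1* (copper) and *opt-2* (an intestine marker) matched no symbol of the annotation and are not in these counts. The gene called higher was *cdr-1*, and *cdr-2* was among the 8 called lower.
Of the 13 tested ZIP transporter genes, 0 were called higher and 3 (23.1%) lower, beside 14.8% of all tested genes, with a median log2 fold change of 0.022. *zipt-13* had 17.1 and 21.1 CPM with OP50 and 9.71 and 8.01 CPM with 2004 (log2 fold change -1.16, adjusted p = 0.00106, edgeR). *zipt-2.2* had 3.79 and 5.96 CPM against 1.53 and 2.27 CPM (log2 fold change -1.39, adjusted p = 0.0104, edgeR). Both fell, with no overlap between the foods. *zipt-16*, the third, was near the detection minimum at 0.629 and 1.66 CPM against 0.496 and 0.453 CPM (adjusted p = 0.0851, edgeR) and lost its call under several alternatives, with an adjusted p-value of 0.174 with DESeq2, 0.126 without 2004 replicate 1 and 0.125 without 2004 replicate 2 (edgeR). *zipt-2.3*, the importer that moves zinc out of the gut granules opposite to CDF-2, had 1.17 and 1.80 CPM with OP50 and 1.77 and 1.36 CPM with 2004, and its foods overlapped. Below 2-fold, *zipt-2.4* (0.61), *zipt-15* (0.61) and *zipt-7.1* (0.50) had higher values and *zipt-3* (-0.51) lower values on the log2 scale at adjusted p-values between 0.00420 and 0.0606 (edgeR).

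**Figure D4:**
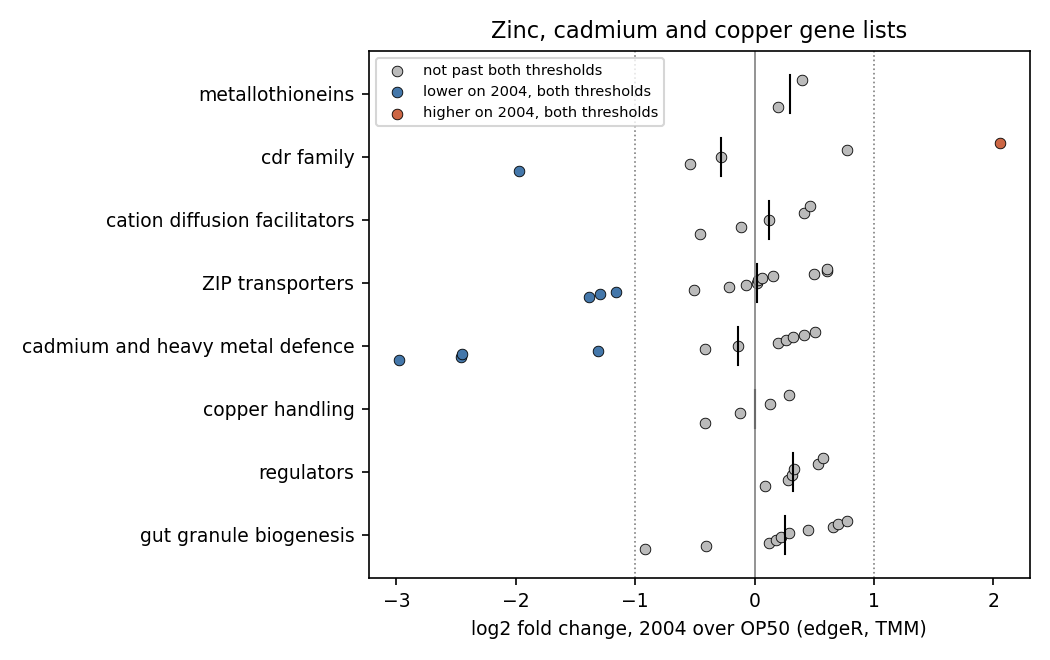
Log2 fold changes, 2004 over OP50, of the tested genes of each list, with black lines at the median of a list and dotted lines at 2-fold changes. Orange marks the 1 gene called higher (*cdr-1*), blue the genes called lower and grey the others.

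Of the 11 genes of cadmium and heavy metal defence, 0 were called higher and 4 (36.4%) lower, beside 14.8% of all tested genes, with a median log2 fold change of -0.14. The 4 include a pair of near-equal genes, which leaves 3 separate observations. *pgp-1*, an ABC transporter gene linked to heavy metal tolerance, had 39.8 and 68.7 CPM with OP50 and 7.57 and 6.54 CPM with 2004, a log2 fold change of -2.98 (SE 0.21, adjusted p = 6.04e-06, edgeR). *pgp-3*, its relative on chromosome X, had 11.8 and 23.0 CPM against 7.75 and 6.58 CPM, a log2 fold change of -1.31 (SE 0.26, adjusted p = 0.00358, edgeR), which was -0.87 without OP50 replicate 2. The other calls were that pair, F08F8.1 and F08F8.5, both with the symbol *numr-1* in the Ensembl annotation, whereas RefSeq gives *numr-2* for F08F8.1. They are known for their induction by cadmium and other metals. They lie on opposite strands of chromosome III and have 846 exonic bases each. F08F8.1 had 16.5 and 26.9 CPM with OP50 and 2.24 and 5.76 CPM with 2004, and F08F8.5 had 16.6 and 28.5 CPM against 2.37 and 5.89 CPM. Values this close may come from reads divided between similar copies, so the pair was read as a single observation, with log2 fold changes of -2.45 (adjusted p = 0.00102, edgeR) and -2.46 (adjusted p = 0.000954, edgeR). The *numr* pair and *cdr-1*, both known as cadmium-induced, were called in opposite directions. Whether the foods differed in metal content was not tested. *pcs-1*, which makes metal-binding phytochelatins, and *hmt-1*, an ABC transporter gene linked to them, were not called. *pcs-1* had 6.91 and 10.6 CPM with OP50 and 15.9 and 9.75 CPM with 2004 (adjusted p = 0.137, edgeR). *hmt-1* had 58.1 and 62.7 CPM against 89.4 and 67.9 CPM (log2 fold change 0.32, adjusted p = 0.0759, edgeR).
None of the 4 copper handling genes was called. In this list, 0 genes had an adjusted p under 0.1 and the median log2 fold change was 0.0057. The most abundant were *cutc-1*, at 75.4 CPM with OP50 and 71.8 CPM with 2004 on average, and the copper ATPase gene *cua-1*, at 52.9 and 67.2 CPM. Of 10 gut granule genes, 0 were called in either direction, with a median of 0.25. Among them *pgp-2* (-0.92) and *snap-29* (-0.41) had lower values and *glo-4* (0.65) and *apm-3* (0.70) higher values at adjusted p-values between 0.00258 and 0.0474 (edgeR). Without OP50 replicate 1, *pgp-2* was called lower (-1.08) and *glo-2* higher (1.20). The most abundant were *apb-3*, at 111 and 140 CPM on average, and *snap-29*, at 98.5 and 76.7 CPM.

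Among the 6 genes listed as regulators, 0 were called in either direction, with a median of 0.32. *hizr-1* had 54 and 73 counts with OP50 and 95 and 66 counts with 2004, which overlapped (log2 fold change 0.33, SE 0.40, adjusted p = 0.531, edgeR). *mdt-15*, the Mediator subunit that works with HIZR-1, had 98.8 CPM with OP50 and 148 CPM with 2004 on average (log2 fold change 0.53, adjusted p = 0.0138, edgeR). *daf-16*, which activates *mtl-1* when insulin signalling is low, had a log2 fold change of 0.58 (adjusted p = 0.0126, edgeR). *elt-2*, the intestinal GATA factor needed for *mtl* transcription, had 9.24 CPM with OP50 and 10.2 CPM with 2004 on average (log2 fold change 0.09, adjusted p = 0.759, edgeR). *skn-1*, the most abundant of them, had 276 and 356 CPM on average (adjusted p = 0.159, edgeR).

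Because entire animals were sequenced, a change in a tissue's share of the RNA and a change in a gene's level within that tissue cannot be told apart. The 5 genes are known mostly from the intestine, and the 7 listed intestine markers moved unequally. Their summed level was 358 and 404 CPM with OP50 and 986 and 815 CPM with 2004, with none at 0. Most of this sum came from *act-5* and *vha-6*. On average *act-5* had 206 CPM with OP50 and 410 CPM with 2004, and *vha-6* had 107 and 395 CPM. The averages of *ges-1* and *elt-7* were lower with 2004. *vha-6* (log2 fold change 1.84) and *pho-1* (1.08) were called higher, *act-5* (0.94) and *ifb-2* (0.58) passed the adjusted p-value below 2-fold, and *elt-2*, *elt-7* and *ges-1* had adjusted p-values of 0.759, 0.649 and 0.122 (edgeR). The call of *pho-1* was lost without OP50 replicate 1 (0.95) and without 2004 replicate 1 (0.75). Without OP50 replicate 1 *ges-1* was called lower (-1.13), and without 2004 replicate 2 *act-5* was called higher (1.05). For every 100 counts of *elt-2* in the same sample there were 6.30 and 4.99 counts of *cdr-1* with OP50 and 23.1 and 20.7 with 2004. For every 100 counts of *vha-6* there were 0.571 and 0.417 with OP50 and 0.593 and 0.535 with 2004, so the foods overlapped relative to *vha-6* and not relative to *elt-2*. Against 100 counts of *act-5* there were 0.264 and 0.238 with OP50 and 0.576 and 0.510 with 2004, which did not overlap. Of the listed intestine markers, *vha-6* had the highest log2 fold change. Ratios to *ges-1*, *elt-7*, *ifb-2* and *pho-1* were not taken. For *ttm-1*, 633 and 507 counts stood against 100 counts of *elt-2* with OP50 and 324 and 465 with 2004. Against 100 counts of *vha-6*, which itself rose, there were 57.4 and 42.4 counts of *ttm-1* with OP50 and 8.33 and 12.01 with 2004. On that scale *mtl-1* (17.0 and 14.5 against 2.25 and 8.21), *mtl-2* (72.6 and 62.6 against 17.5 and 33.1) and *cdf-2* (1.62 and 1.80 against 0.510 and 0.788) also had lower values with 2004, without overlap. Against 100 counts of *elt-2*, the foods overlapped for *mtl-1*, *mtl-2* and *cdf-2*. There were 187 and 173 counts of *mtl-1* with OP50 and 87.4 and 318 with 2004. For *mtl-2* there were 801 and 749 against 679 and 1280.5, and for *cdf-2* 17.8 and 21.6 against 19.8 and 30.5. *vha-6* rose more than *mtl-1*, *mtl-2* or *cdf-2*, so lower values relative to it do not show that these genes fell. The part of intestine content in these results was not tested. Summed body wall muscle markers went from 1096 and 983 CPM to 363 and 320 CPM, with *unc-54* and *unc-15* called lower and *myo-3* (-0.81) below 2-fold. No marker was called among the 6 listed for the germline (3 at an adjusted p-value under 0.1, all higher) or the 5 tested for the embryo (also 3, higher) with all samples, but without OP50 replicate 1 *rme-2* (1.06) and *elt-1* (1.22) were called higher. For *act-1*, which the study's qPCR used as reference, the log2 fold change was 0.21 (adjusted p = 0.515, edgeR).

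The genes most like each of the 5 across the samples were sought among 6792 tested genes with a mean of at least 10 CPM, by the root mean square distance between profiles of log2(CPM + 2) centred on their own mean. With 4 samples this describes the libraries and is no measure of shared control. The nearest to *mtl-1* was *cnc-4*, a caenacin antimicrobial peptide gene, at 37.0 and 43.5 CPM with OP50 and 27.7 and 64.2 CPM with 2004 (distance 0.092). It had the same order of samples, with 2004 replicate 1 lowest and 2004 replicate 2 highest. *vab-19* (0.217) and B0393.8 (0.252) followed at larger distances. Nearest to *mtl-2* were Y24F12A.3 (0.059), *pab-2* (0.073), a poly(A)-binding protein gene, and C16E9.2 (0.107). For *ttm-1* they were ZK632.10 (0.014), *dmd-6* (0.015) and the ribosomal protein gene *rpl-29* (0.015). The nearest to *cdr-1* were *copb-2* (0.010), F46B6.4 (0.010) and *xrn-1* (0.011). Their log2 fold changes were 0.70, 0.80 and 0.70, against 2.05 for *cdr-1* (edgeR). Nearest to *cdf-2* were Y54G9A.9 (0.012), *rrsr-1* (0.024) and *vps-41* (0.026). For *cdr-1* and *cdf-2*, whose levels lie near the added 2 CPM, 0 of these 3 neighbours were among the nearest when 4 CPM was added.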

How the data were processed

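Per the methods and the submitters' processing notes, the authors used FastQC 0.11.8, Trim Galore 0.6.4, HISAT2 2.1.0 with WBcel235, SAMtools 1.7 and StringTie 2.1.1. The annotation release, read length and strand setting are not given in the sources used here. The table deposited by the authors holds StringTie estimated counts for 57834 transcripts, as whole numbers without normalization, and 99.5% of them matched Ensembl release 115 by sequence name. Counts were summed per sequence name and fitted with edgeR 4.0.16 in R 4.3.3 (TMM, glmQLFit, glmQLFTest), with p-values adjusted over all tested genes and standard errors from the F statistic. Alternatives were RLE factors, library size alone, DESeq2 1.42.0, limma-voom (limma 3.58.1), no filter, 10 counts in every sample, counts per transcript, a replicate block, an adjusted p under 0.05, other pseudocounts and each sample left out.

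The 5 genes, the lists and the tests were chosen with earlier results of these data known. Named were the 5 genes, list genes past both thresholds, the 2 most abundant genes of a list with fewer calls, *act-1* and the 3 nearest profiles of each gene. Others (*cdr-4*, *cdr-6*, *cdr-7*, *zipt-2.3*, ZIP and gut granule genes below 2-fold, *pcs-1*, *hmt-1*, *cdf-1*, *sur-7*, the remaining regulators and the tissue markers) were named after their values were seen. In a simulation with 12505 genes, of which 200 were changed, edgeR recovered 58.5% of genes changed 2-fold at an adjusted p under 0.1. It recovered 87% of those changed 4-fold. In these runs 25 and 23 unchanged genes passed as well, beside 117 and 174 recovered. In the data far more genes passed this threshold, 23.9% as higher and 25.2% as lower. The adjusted p depends on how many genes change, so the simulated shares do not measure recovery in the data. Replicates were not repeats of a library: their chi-square per degree of freedom was 75.3 for OP50 and 33.4 for 2004. Protein and promoter sequences were not used here.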

Additional observations from a re-analysis of the deposited data

How the results depend on the processing

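The call of *cdr-1* held under every alternative run, with log2 fold changes from 2.04 to 2.11 and adjusted p-values up to 0.0694 (edgeR on counts per transcript), and from 1.88 to 2.25 without each sample. *mtl-1* turned to -0.051 with limma-voom, to -0.016 with the replicate block and to -0.018 with crossed replicate numbers as a block, an alternative chosen after seeing the data. Without each sample its log2 fold change ranged from -0.83 to 0.82. *mtl-2* was not called under any alternative with all samples, with an adjusted p-value between 0.0820 (replicate block, edgeR) and 0.391 (counts per transcript, edgeR). *cdf-2* and *ttm-1* kept their signs, and without each sample *cdf-2* ranged from 0.22 to 0.62 and *ttm-1* from -0.61 to -0.29. The replicate numbers share no stated origin, and the deviations of samples with the same number had a correlation of -0.11. With the replicate block 923 genes were higher and 1785 lower, against 944 and 1851 without it, and with the crossed numbers 948 and 1845. Under the other alternatives with all samples, genes higher ranged from 824 (10 counts in every sample) to 1020 (library size alone). Genes lower ranged from 1632 (DESeq2) to 1925 (limma-voom). Fewer genes were called higher without 2004 replicate 1, and fewer lower without OP50 replicate 2. Among the metal lists 1 gene was called higher, and 1 to 2 without each sample, with *glo-2* added without OP50 replicate 1 and *cdr-4* without 2004 replicate 2. On the scale log2(CPM + 2), *cdr-1* differed by 0.75 between the foods and on log2(CPM + 4) by 0.46, since the added value dampens a gene near 1 CPM. With 2 samples per food and 24 to 128 counts, *cdr-1* and *cdf-2* were limited by depth as well as by replicates.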
